A study of Mus musculus with 9 samples.

Results

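Epithelial-to-mesenchymal transition (EMT) is the change in which epithelial cells lose their cell-cell junctions and gain the features of migratory mesenchymal cells. The 10 genes described here are transcripts that regulate or mark that change. They were chosen by gene symbol as *Snai1*, *Snai2*, *Twist1*, *Twist2*, *Zeb1*, *Zeb2*, *Vim*, *Esrp1*, *Esrp2* and *Ovol1*, and were matched to mouse Ensembl identifiers. Of these 10 genes, 9 have a row among the 19044 genes of the count table. *Esrp1* has no row and was not analysed here.

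Snail-family (Snai1 and Snai2) and Zeb-family (Zeb1 and Zeb2) proteins are zinc-finger repressors that bind E-box sequences in the promoters of epithelial genes such as *Cdh1*, which encodes E-cadherin. Twist1 and Twist2 are basic helix-loop-helix factors that also act through E-boxes. On the epithelial side, Ovol1 is a zinc-finger repressor that restrains the mesenchymal programme, and Esrp1 and Esrp2 are RNA-binding proteins that direct epithelial forms of splicing. *Vim* encodes vimentin, the class III intermediate filament protein of mesenchymal cells. In squamous cell carcinoma (SCC), EMT is known for its links with invasion and with spindle-shaped tumours.

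RNA was sequenced from 3 mouse SCC cell lines with 3 replicates each. The cells came from a skin carcinoma induced with the carcinogen DMBA and the tumour promoter TPA in FVB mice that carried floxed FAK alleles and K14CreER, a tamoxifen-inducible Cre under a keratinocyte promoter. Focal adhesion kinase (FAK, encoded by *Ptk2*) was deleted in culture with 4-hydroxytamoxifen to give FAK-/- cells. Wild-type FAK (FAK-WT) or a kinase-deficient mutant (FAK-kd) was then stably expressed in a FAK-/- clone by retrovirus. FAK-WT cells are therefore a re-expressing line and not the unmodified tumour line, and the endogenous gene is deleted in all 3 lines. Cells that expressed either construct were selected with hygromycin, a step that the study does not give for FAK-/- cells. Each line is a single derivation, so that differences between lines include any difference between derivations, which cannot be told apart from FAK status. The study describes the replicates of each line as biological, and the labels give only their number. The p-values measure the spread between these samples.

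The libraries held between 25304994 and 37264636 counts, with the exception of FAK-WT replicate 1, which held 779755. The detection floor was set at 3 counts, which corresponded to 3.78 CPM (counts scaled to TMM-normalized library size) in that library and to between 0.0798 and 0.118 CPM in the other 8. FAK-/- replicate 3 also stood apart. Its log2 deviation from the mean of FAK-/- replicates 1 and 2 correlated with transcript GC content across 12144 genes (Spearman's rho = 0.663), against 0.0843 for the difference between those replicates. These coefficients are across genes, which are not independent replicates. *Ptk2* was at 213, 216 and 216 CPM in FAK-WT, 21.8, 23.5 and 19.6 CPM in FAK-/- and 155, 158 and 176 CPM in FAK-kd libraries, lowest in FAK-/- without overlap. It was also 1.32-fold higher in FAK-WT than in FAK-kd libraries, without overlap (log2 difference 0.40, edgeR adjusted p = 0.00163). FAK-WT and FAK-kd cells thus differed in *Ptk2* level as well as in the mutation.

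In these cells the mesenchymal-side regulators were detected in every library and the epithelial-side regulators were at or under the detection floor. The 7 genes *Snai1*, *Snai2*, *Twist1*, *Twist2*, *Zeb1*, *Zeb2* and *Vim* had mean levels between 16.3 and 7514 CPM over the 9 libraries. *Esrp2* had at most 2 counts in any library, and *Ovol1* had 1 count in FAK-kd replicate 1 and none in the other 8. The one regulator past the threshold in any comparison was *Snai2*, which was 2.32-fold higher in FAK-WT-expressing than in FAK-/- SCC cells.

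**Figure D1:**
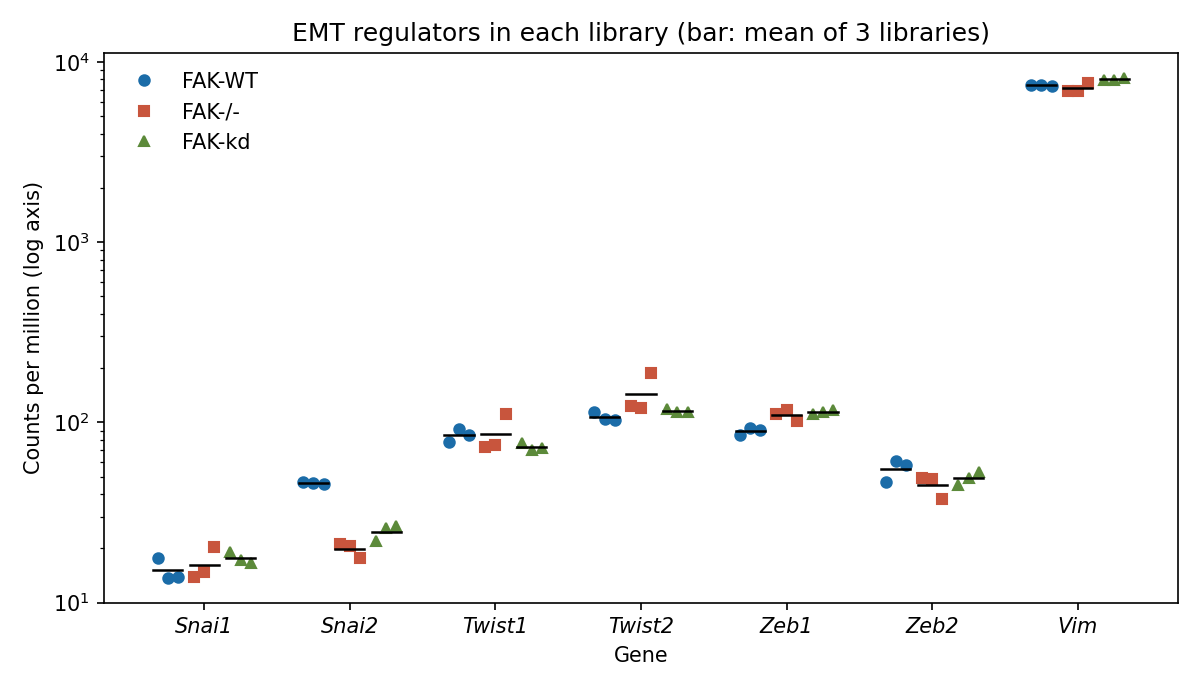
CPM (log axis) of the 7 detected EMT regulators in each of the 9 libraries, with 3 points per cell line and a bar at the mean of 3 libraries. The 3 FAK-WT libraries sit at 45.7 to 46.6 CPM for *Snai2*, above all 6 other libraries, and *Vim* lies between 6859 and 8143 CPM throughout.

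Because Snail and Zeb repressors bind the E-box CACCTG, the 250 bases before the start site were searched for it on both strands in RefSeq promoters of GRCm38.p6, where CAGGTG is the same word on the other strand. The word occurred for 5252 of 27025 genes with a promoter (19.4%), where a gene was counted if any of its promoters held it. Among the regulators, 5 had a promoter in the table and *Snai1* held the word, at position -126 from its start. It occurred for 9 of 14 epithelial effector genes (64.3%), most of which encode junction proteins and simple keratins, for 3 of 8 other epithelial transcription factors and for 0 of 12 mesenchymal effector genes. A match is a description of the letters and not a bound site. The promoters of *Snai1* and of *Vim*, the most abundant regulator, are shown with those of the epithelial genes *Rab25*, *Ocln* and *Krt8*, which had 19, 10 and 153 counts over the 9 libraries. *Rab25*, *Ocln* and *Krt8* all hold the word. *Dsp* and *Marveld2*, with 5 and 2 counts, do not, and neither do *Cldn1*, *Cldn3* and *Spint1*. *Cdh1* has no promoter in the table. A relation between the word and the counts was not tested. *Ocln* has a second promoter in the table (chr13:100552719-100552968) that held 0 such words, and the one with 2 is shown. Capitals mark CACCTG or CAGGTG.
Snai1 (chr2:167537945-167538194, plus strand): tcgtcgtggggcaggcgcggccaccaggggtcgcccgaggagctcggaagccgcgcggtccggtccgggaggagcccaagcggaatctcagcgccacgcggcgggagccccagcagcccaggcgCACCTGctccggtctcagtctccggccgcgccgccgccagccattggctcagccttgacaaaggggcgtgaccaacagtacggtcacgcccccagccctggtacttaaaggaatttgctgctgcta
Vim (chr2:13574061-13574310, plus strand): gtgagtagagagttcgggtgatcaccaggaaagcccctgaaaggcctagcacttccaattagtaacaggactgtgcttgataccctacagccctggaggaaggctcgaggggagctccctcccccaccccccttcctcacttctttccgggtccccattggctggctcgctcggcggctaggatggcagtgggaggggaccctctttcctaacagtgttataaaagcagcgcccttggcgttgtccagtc
Rab25 (chr3:88548280-88548529, minus strand): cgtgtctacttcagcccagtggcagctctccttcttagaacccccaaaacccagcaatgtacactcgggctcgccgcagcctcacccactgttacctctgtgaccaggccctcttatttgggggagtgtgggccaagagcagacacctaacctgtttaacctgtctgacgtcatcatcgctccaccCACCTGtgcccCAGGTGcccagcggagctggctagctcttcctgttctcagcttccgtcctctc
Ocln (chr13:100552499-100552748, minus strand): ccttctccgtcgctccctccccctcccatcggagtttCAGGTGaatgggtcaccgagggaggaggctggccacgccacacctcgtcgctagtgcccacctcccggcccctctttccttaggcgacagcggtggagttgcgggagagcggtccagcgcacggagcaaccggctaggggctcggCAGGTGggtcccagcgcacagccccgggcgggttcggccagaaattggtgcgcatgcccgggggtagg
Krt8 (chr15:102004343-102004592, minus strand): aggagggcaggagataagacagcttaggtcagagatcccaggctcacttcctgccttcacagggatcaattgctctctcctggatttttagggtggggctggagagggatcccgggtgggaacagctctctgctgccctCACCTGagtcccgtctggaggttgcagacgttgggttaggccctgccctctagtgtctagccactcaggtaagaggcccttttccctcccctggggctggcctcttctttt

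*Snai1* lies on chromosome 2 (chr2:167538195-167542814, plus strand, mm10) and *Snai2*, which encodes the repressor Slug, on chromosome 16 (chr16:14705852-14709385, plus strand). *Snai2* was at 46.6, 46.2 and 45.7 CPM in FAK-WT replicates 1 to 3, at 21.2, 20.6 and 17.8 CPM in FAK-/- replicates and at 21.9, 25.8 and 26.7 CPM in FAK-kd replicates. The FAK-WT libraries were the highest, the FAK-/- libraries the lowest, and none of the 3 lines overlapped another. The FAK-WT value of replicate 1 rests on 37 counts, with a 95% Poisson interval from 32.8 to 64.2 CPM that covers counting error only.

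*Snai2* rose by 1.21 on the log2 scale in FAK-WT relative to FAK-/- cells (95% interval 0.98 to 1.44, edgeR quasi-likelihood test, adjusted p = 1.05e-06), with all 3 FAK-WT libraries above all 3 FAK-/- libraries. In bulk RNA, fewer cells that express a gene and less RNA per cell cannot be told apart. Against FAK-kd cells the log2 difference was 0.89 (0.67 to 1.12, edgeR adjusted p = 2.26e-05), a 1.86-fold higher level that was under the fold-change minimum of 2. FAK-kd against FAK-/- cells gave 0.32 (0.10 to 0.54, edgeR adjusted p = 0.0713), which did not pass (0.0362 without FAK-kd replicate 1). Leaving out any 1 of the 9 libraries kept the difference between FAK-WT and FAK-/- between 1.14 and 1.27, and the lowest value was without FAK-/- replicate 3. A stricter test, glmTreat, which asks whether the log2 difference itself exceeds 1, gave an adjusted p of 0.252.

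*Snai1*, the related repressor known as Snail and shown above with its promoter word, did not follow *Snai2*. It was at 17.6, 13.8 and 13.8 CPM in FAK-WT, 13.8, 14.7 and 20.2 CPM in FAK-/- and 19.1, 17.2 and 16.5 CPM in FAK-kd libraries. The libraries of the 3 lines overlapped in every comparison. The log2 difference was -0.21 (95% interval -0.52 to 0.10) for FAK-WT against FAK-/-, -0.33 (-0.63 to -0.02) against FAK-kd and 0.11 (-0.16 to 0.39) for FAK-kd against FAK-/- cells, with edgeR adjusted p-values of 0.374, 0.147 and 0.644. All 3 intervals lie within 1 of 0, so that a 2-fold change in either direction was outside them.

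The Twist family is *Twist1* (chr12:33957671-33959829, plus strand) and *Twist2* (chr1:91801461-91848028, plus strand). *Twist1* was at 78.1, 91.5 and 85.0 CPM in FAK-WT, 72.8, 75.2 and 111 CPM in FAK-/- and 76.6, 70.2 and 71.8 CPM in FAK-kd libraries. FAK-/- replicate 3 was the highest of the 9, and FAK-WT and FAK-kd libraries did not overlap. The fitted log2 differences were 0.01 (-0.28 to 0.29), 0.25 (-0.03 to 0.53) and -0.25 (-0.51 to 0.02) in the 3 comparisons in the order above, and none passed the test (edgeR adjusted p = 1, 0.236 and 0.291).

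*Twist2* was at 115, 105 and 103 CPM in FAK-WT, 123, 120 and 188 CPM in FAK-/- and 118, 115 and 115 CPM in FAK-kd libraries. The FAK-WT libraries were the lowest and did not overlap either other line, although the highest FAK-WT and the lowest FAK-kd library were both at 115 CPM. *Twist2* was lower in FAK-WT-expressing than in FAK-/- SCC cells by adjusted p alone (log2 difference -0.45, 95% interval -0.74 to -0.16, edgeR adjusted p = 0.033), and the difference was under the fold-change minimum. Without FAK-/- replicate 3 the difference was -0.22 (edgeR adjusted p = 0.00673). The adjusted p was 0.110 and 0.126 without FAK-WT replicate 2 or 3 and 0.0540 and 0.0641 without FAK-kd replicate 1 or 3. FAK-WT against FAK-kd gave -0.13 (edgeR adjusted p = 0.568) and FAK-kd against FAK-/- gave -0.31 (edgeR adjusted p = 0.170). Of the 31-base words in *Twist2* transcripts, 46.0% also occur in transcripts of *Gm29100*, an antisense gene with no row in the table, and the library kit does not mark strand, so that the counts of *Twist2* may include reads from its antisense partner.

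The Zeb family is *Zeb1* (chr18:5591860-5775467, plus strand) and *Zeb2* (chr2:44983632-45117395, minus strand), which encode large repressors with zinc fingers at both ends. *Zeb1* was at 85.6, 93.0 and 90.5 CPM in FAK-WT, 111, 118 and 102 CPM in FAK-/- and 112, 114 and 117 CPM in FAK-kd libraries. All 3 FAK-WT libraries were below all 6 others, while FAK-/- and FAK-kd overlapped. *Zeb1* was lower in FAK-WT cells by adjusted p alone, by a log2 difference of -0.28 against FAK-/- (95% interval -0.43 to -0.12, edgeR adjusted p = 0.0141) and of -0.33 against FAK-kd cells (-0.49 to -0.18, edgeR adjusted p = 0.00437), both well under the fold-change minimum. Against FAK-/- cells the adjusted p was 0.0589, 0.0854, 0.0543 and 0.0833 without FAK-WT replicate 2 or 3 or FAK-/- replicate 1 or 2, in that order. FAK-kd against FAK-/- cells gave 0.05 (-0.09 to 0.20, edgeR adjusted p = 0.700).

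FAK-WT cells had the highest fitted value of *Zeb2* and the lowest of *Zeb1*. *Zeb2* was at 46.6, 61.1 and 58.2 CPM in FAK-WT, 49.4, 48.7 and 37.5 CPM in FAK-/- and 45.2, 49.2 and 53.1 CPM in FAK-kd libraries. FAK-WT replicates 2 and 3 were the highest, but replicate 1, with 37 counts, overlapped both other lines. The log2 difference was 0.35 for FAK-WT against FAK-/- (95% interval 0.10 to 0.61, edgeR adjusted p = 0.0503), 0.23 against FAK-kd (-0.02 to 0.48, edgeR adjusted p = 0.217) and 0.12 for FAK-kd against FAK-/- cells (-0.12 to 0.36, edgeR adjusted p = 0.587). The adjusted p against FAK-/- cells lay close to the threshold and crossed it under several settings. It was 0.0394 with DESeq2, 0.0411 with a filter on low counts (filterByExpr) and 0.0255 without FAK-WT replicate 1, but 0.270 and 0.194 without FAK-WT replicate 2 or 3.

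*Vim* (chr2:13573927-13582826, plus strand) was the second most abundant gene of the table by mean CPM and the sixth per kilobase of transcript. It was at 7441, 7450 and 7365 CPM in FAK-WT, 6889, 6859 and 7659 CPM in FAK-/- and 7910, 7911 and 8143 CPM in FAK-kd libraries. The FAK-kd libraries were the highest and overlapped neither other line. The log2 differences were small, at 0.06 (-0.06 to 0.18), -0.11 (-0.23 to 0.01) and 0.16 (0.04 to 0.28), with edgeR adjusted p-values of 0.556, 0.239 and 0.101. The whole spread of *Vim* over the 9 libraries was 1.19-fold.

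The deviation of FAK-/- replicate 3 from the other FAK-/- replicates touched these genes. *Snai1*, *Twist1* and *Twist2*, with transcript GC contents of 59.8%, 59.3% and 52.6%, were higher in that library by 0.50, 0.59 and 0.63 on the log2 scale, while *Zeb2* (40.6% GC), *Snai2* (42.6%) and *Zeb1* (46.1%) deviated by -0.39, -0.23 and -0.16. *Vim*, with a GC content of 53.9%, above that of *Twist2*, deviated by only 0.16. The median GC content of the 12144 genes was 50.2%, and the part of GC content in the values of single genes was not tested. Without that library the count of regulators with an adjusted p of at most 0.05 in edgeR, whatever the fold change, rose from 3 to 6 of 9 for FAK-WT against FAK-/-, from 2 to 7 for FAK-WT against FAK-kd and from 0 to 2 for FAK-kd against FAK-/- cells. The share of all genes at that level without the library was 23.3%, 28.5% and 11.8%. Of the 7 regulators that then passed against FAK-kd cells, *Snai2*, *Twist1* (log2 difference 0.26) and *Zeb2* (0.26) were higher in FAK-WT cells and *Snai1* (-0.34), *Twist2* (-0.15), *Zeb1* (-0.32) and *Vim* (-0.11) were lower. *Snai2* against FAK-/- cells remained the only one past the fold-change minimum.

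**Figure D2:**
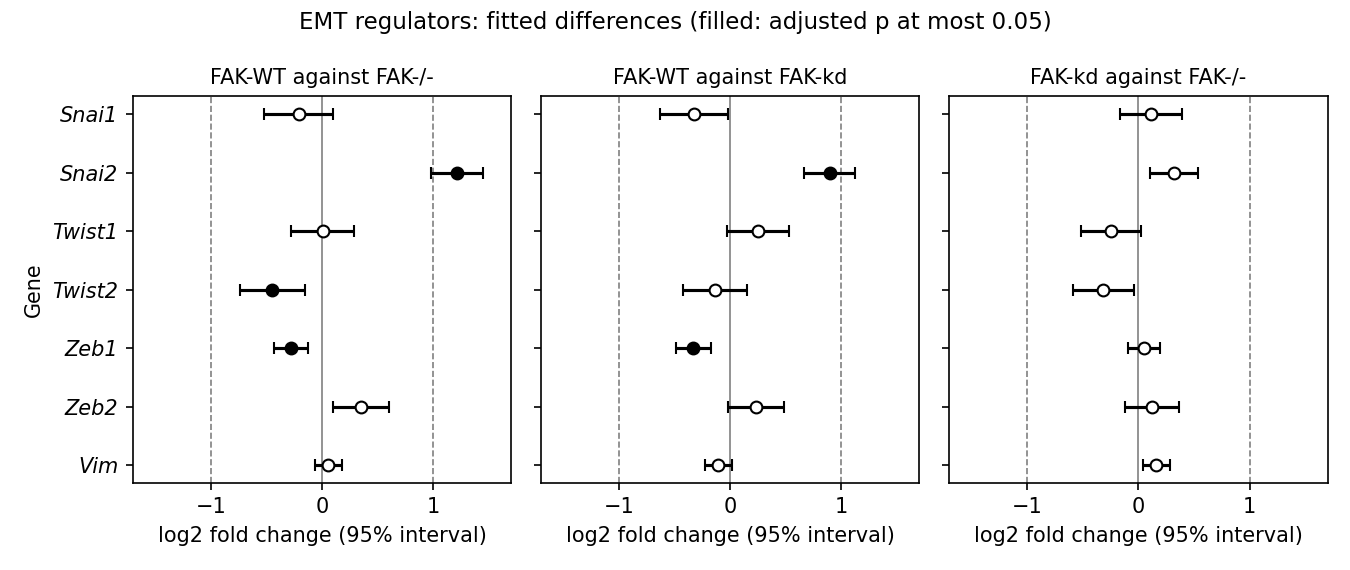
Fitted log2 fold change with its 95% interval for the 7 detected EMT regulators in the 3 comparisons, with filled points for an adjusted p of at most 0.05 and dashed lines at the fold-change minimum. The point of *Snai2* at 1.21 in FAK-WT against FAK-/- is the only one past a dashed line, and filled points at -0.45 and -0.28 mark *Twist2* and *Zeb1*.

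Counted over the family, 1 of the 9 regulators with a row passed the threshold (adjusted p of at most 0.05 and at least a 2-fold change) for FAK-WT against FAK-/- cells, where 5.38% of the 19044 genes passed and 2.32% rose. None passed for FAK-WT against FAK-kd, where 5.26% of all genes did (2.37% higher and 2.89% lower), and none for FAK-kd against FAK-/-, where 2.01% did (0.914% higher and 1.09% lower). By adjusted p alone the counts were 3, 2 and 0 of 9 regulators, against 18.0%, 17.7% and 7.84% of all genes, and at an unadjusted p under 0.05 they were 4, 3 and 3, against 29.0%, 28.5% and 20.4%. The 3 for FAK-WT against FAK-/- became 1, *Snai2* alone, without FAK-WT replicate 2 or without replicate 3, and 2 without FAK-kd replicate 1 or 3. DESeq2 also called 1, 0 and 0 of the regulators past the full threshold. Among the 7 regulators kept by a filter on low counts, the libraries of 1 line lay wholly above or below those of the other for 3, 5 and 3, against 42.5%, 47.7% and 35.4% of all kept genes. The median log2 difference of these 7 was 0.01, -0.11 and 0.11, beside -0.02, -0.02 and 0.01 over all genes with a mean of at least 1 CPM. With 9 genes, counts of this size do not set the family apart from the other genes of the table.

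The regulators also differed in level among themselves. Per kilobase of transcript, the order in FAK-WT cells was *Vim* (3383 CPM per kilobase), *Twist1* (52.1), *Twist2* (42.5), *Snai2* (22.8), *Zeb1* (15.5), *Snai1* (9.30) and *Zeb2* (6.06), and no neighbours in that order overlapped. In FAK-/- cells the order was *Vim* (3254), *Twist2* (57.0), *Twist1* (53.0), *Zeb1* (19.0), *Snai1* (10.0), *Snai2* (9.82) and *Zeb2* (4.95). The libraries of *Twist2* and *Twist1*, and those of *Snai1* and *Snai2*, overlapped there. In FAK-kd cells *Twist2* (45.9) and *Twist1* (44.8) overlapped, as did *Snai2* (12.3) and *Snai1* (10.9), with *Vim* (3642) first, *Zeb1* (19.7) between these pairs and *Zeb2* (5.39) last. *Snai2* thus stood above *Zeb1* in FAK-WT cells and below it in both other lines.

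The balance within each pair of related genes was given by the ratio of their counts in 1 library, which needs no scaling between libraries. A ratio does not remove a deviation that differs between the genes of a pair. In FAK-/- replicate 3, *Snai1* and *Snai2* deviated by 0.50 and -0.23 on the log2 scale, and *Zeb1* and *Zeb2* by -0.16 and -0.39. These ratios were chosen after the values had been seen. *Snai2* to *Snai1* was 2.64, 3.36 and 3.30 in the FAK-WT libraries, 1.53, 1.40 and 0.878 in the FAK-/- libraries and 1.14, 1.50 and 1.62 in the FAK-kd libraries. *Twist2* to *Twist1* was 1.47, 1.15 and 1.21 in the FAK-WT libraries, 1.69, 1.60 and 1.69 in the FAK-/- libraries and 1.55, 1.63 and 1.60 in FAK-kd libraries. *Zeb1* to *Zeb2* was 1.84, 1.52 and 1.56 in the FAK-WT libraries, 2.24, 2.42 and 2.72 in the FAK-/- libraries and 2.48, 2.31 and 2.20 in FAK-kd libraries.

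For each of these 3 pairs the FAK-WT libraries overlapped neither other line, whereas FAK-kd and FAK-/- libraries overlapped. FAK-WT replicate 1 enters with 37 counts of *Snai2* and 14 of *Snai1*. It had 91 and 62 counts of *Twist2* and *Twist1*, and 68 and 37 of *Zeb1* and *Zeb2*. Its *Twist2* to *Twist1* ratio of 1.47 lies close to the lowest FAK-kd ratio of 1.55. Counting error was not carried into these ratios. Among single genes kept by the filter on low counts, 42.5% and 47.7% did not overlap between FAK-WT and FAK-/- or FAK-kd libraries, and the share over other gene pairs was not computed. The *Snai2* to *Snai1* ratio averaged 3.10 ± 0.397 for FAK-WT, 1.27 ± 0.347 for FAK-/- and 1.42 ± 0.247 for FAK-kd libraries (SD, n = 3 each). The *Twist2* to *Twist1* ratio was 1.27 ± 0.171, 1.66 ± 0.0558 and 1.59 ± 0.0432, and the *Zeb1* to *Zeb2* ratio 1.64 ± 0.174, 2.46 ± 0.245 and 2.33 ± 0.139, in the same order. Each of the 6 comparisons with FAK-WT cells gave p = 0.1 in a two-sided exact permutation test, the smallest p that 3 libraries against 3 allow, and an adjusted p of 0.15 over the 9 tests. FAK-kd against FAK-/- gave exact permutation p-values of 0.6, 0.2 and 0.6. With 3 libraries a group this permutation test could not pass the threshold, so the ratios are given as a description.

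**Figure D3:**
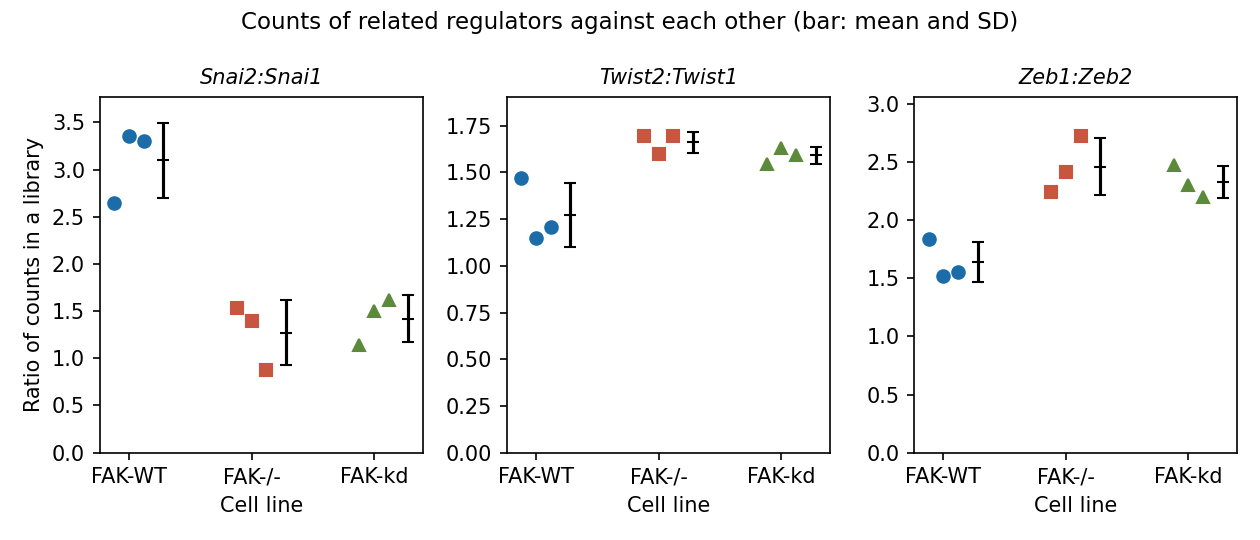
Ratio of the counts of related EMT regulators in each library, by cell line, with the mean and SD of 3 libraries beside the points. For *Snai2* to *Snai1* the FAK-WT libraries lie between 2.64 and 3.36 and the other 6 between 0.878 and 1.62, and for the other pairs the FAK-WT libraries are the lowest.

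The genes whose level over the 9 libraries was most like that of *Snai2* were *Plcl2* (Pearson's r = 0.996 of log2 CPM), *Fam198b* (r = 0.992) and *Aldh1l2* (r = 0.991), the last of which encodes a mitochondrial folate enzyme. The 9 points fall into 3 cell lines, so that r largely follows the line means. *Plcl2* was at 16.6 ± 0.871 CPM for FAK-WT, 6.37 ± 0.594 CPM for FAK-/- and 8.09 ± 1.08 CPM for FAK-kd libraries (SD, n = 3). *Fam198b* was at 73.5 ± 2.21, 24.7 ± 2.76 and 32.2 ± 0.956 CPM, and *Aldh1l2* at 138 ± 1.58, 79.3 ± 3.55 and 88.9 ± 9.58 CPM. These genes lie on chromosomes 17, 3 and 10, and *Snai2* on chromosome 16.

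The epithelial-side regulators could not be compared between lines. *Esrp2* had 0, 0 and 2 counts in the FAK-WT libraries, 2, 1 and 2 in the FAK-/- libraries and 2, 1 and 1 in the FAK-kd libraries, so that all 9 libraries were under the floor of 3 counts and no fold change is given. *Ovol1*, with its single count, is likewise given no fold change. In FAK-WT replicate 1 the floor stands at 3.78 CPM, where the 95% Poisson interval of a count of 0 reaches 4.64 CPM, and in the other libraries it stands at no more than 0.118 CPM.

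The wider lists of EMT genes had the same division of levels. Of 14 other epithelial transcription factors, 12 had a row and 3 had a mean of at least 1 CPM, namely *Klf4* (79.1 CPM), *Klf5* (23.8) and *Tfap2a* (18.9). *Grhl2*, a factor that maintains the epithelial state, had 6 counts over all 9 libraries. Of 20 epithelial effector genes 13 had a row and 1 reached 1 CPM, the plakophilin gene *Pkp3* at 26.2 CPM. *Cdh1* had 4 counts, all of them in FAK-/- replicate 3. No gene of these 2 lists with at least 1 CPM passed the threshold in any of the 3 comparisons. The claudin gene *Cldn1* and the keratin genes *Krt8* and *Krt19* passed in at least 1 comparison with means of 0.422, 0.643 and 0.124 CPM. *Cldn1* was higher in FAK-WT and FAK-kd than in FAK-/- cells, *Krt8* higher in FAK-kd than in FAK-/- cells and *Krt19* lower in FAK-WT than in FAK-kd cells. The *Krt19* call was lost without FAK-WT replicate 2 or FAK-kd replicate 1 (edgeR adjusted p = 0.142 and 0.0517), and that of *Cldn1* in FAK-kd cells without FAK-kd replicate 3 (edgeR adjusted p = 0.0527). *Cldn1*, *Krt8* and *Krt19* are outside the rule for named genes and were named after their values were seen. The mean of *Cldn1* includes 2 counts in FAK-WT replicate 1 (2.52 CPM) and was 0.160 CPM over the other 8 libraries.

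The label of a squamous carcinoma was checked against keratinocyte markers. Of 11 markers, 8 had a row and 1 had a mean of at least 1 CPM, the integrin gene *Itgb4* at 54.1 to 102 CPM. *Krt5* and *Krt14*, the basal keratins, had 7 and 20 counts over the 9 libraries. *Lamb3* (mean 0.171 CPM) and *Krt6a* (0.0788 CPM) were higher in FAK-WT cells in 1 comparison each, and are also outside the rule. The *Krt6a* call, against FAK-kd cells, was lost without FAK-WT replicate 2 or 3 (edgeR adjusted p = 0.0958 and 0.0800). It was also lost without FAK-kd replicate 2 or 3 (edgeR adjusted p = 0.0880 and 0.0519). The summed level of the list was 54.1 to 73.3 CPM in FAK-WT, 76.2 to 102 CPM in FAK-/- and 75.8 to 96.4 CPM in FAK-kd libraries. Nearly all of it came from *Itgb4* (means of 65.5, 86.0 and 88.6 CPM in that order), which did not pass in any comparison. The defining keratins of squamous epithelium were therefore at or near 0 in all 3 lines, and the cells are called SCC cells here after their label.

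Most mesenchymal effector genes were detected, at widely differing levels. Of 20 such genes, 19 had a row and 16 a mean of at least 1 CPM, with a median of 111 CPM over the 19. The highest mean was 2967 CPM for *S100a4*. The lowest were *Postn* (0.00333 CPM), *Lox* (0.0849), *Tagln* (0.591), *Col1a1* (1.01), *Mmp2* (1.10), *Tnc* (1.51) and *Col1a2* (4.50). *Cdh2*, which encodes N-cadherin, was at 117, 109 and 108 CPM in FAK-WT, 143, 148 and 153 CPM in FAK-/- and 137, 137 and 136 CPM in FAK-kd libraries, lowest in FAK-WT without overlap. It was lower in FAK-WT cells by adjusted p alone, by -0.43 against FAK-/- (edgeR adjusted p = 0.000258) and -0.31 against FAK-kd (edgeR adjusted p = 0.0032). *Fn1*, encoding fibronectin, was at 1331 ± 110, 1499 ± 194 and 1863 ± 264 CPM (SD, n = 3) in FAK-WT, FAK-/- and FAK-kd cells, with a log2 difference of -0.49 between FAK-WT and FAK-kd (edgeR adjusted p = 0.00418).

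**Figure D4:**
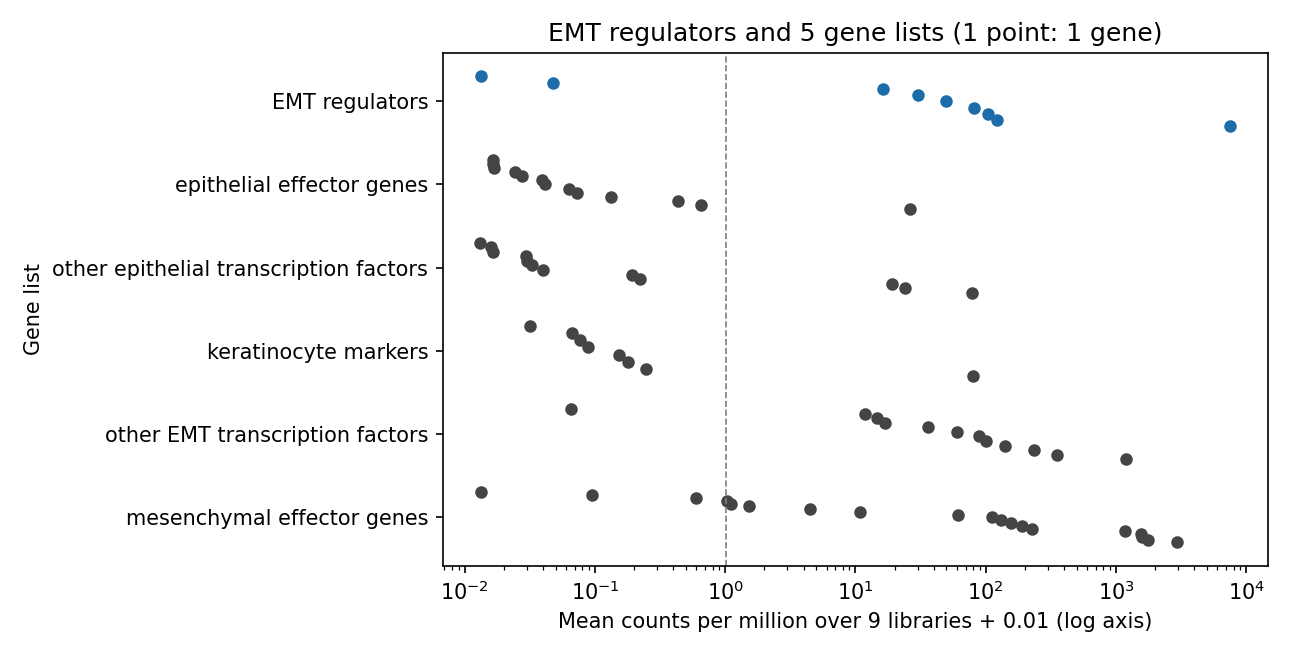
Mean CPM over the 9 libraries, plus 0.01, on a log axis, for each gene with a row among the EMT regulators and 5 gene lists, with a dashed line at 1 CPM. Of the regulators 7 lie right of the line and 2 left of it, and 12 of 13 epithelial effector genes lie left of it while 16 of 19 mesenchymal effector genes lie right.

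Of the 19 mesenchymal genes with a row, 1 fell and 1 rose past the threshold in FAK-WT relative to FAK-/- cells, and the same counts held against FAK-kd. Over all genes 3.06% fell and 2.32% rose against FAK-/-, and 2.89% fell and 2.37% rose against FAK-kd cells. *Acta2*, which encodes smooth-muscle actin, was at 0, 1.49 and 1.44 CPM in FAK-WT, 73.9, 72.2 and 78.7 CPM in FAK-/- and 118, 106 and 100 CPM in FAK-kd libraries. It was lower in FAK-WT cells by -5.69 and -6.22 on the log2 scale (edgeR adjusted p = 1.16e-12 and 8.65e-13). *Tnc*, encoding tenascin C, was higher in FAK-WT cells, at 2.39 ± 1.02 CPM against 1.14 ± 0.239 in FAK-/- and 1.00 ± 0.119 in FAK-kd cells (SD, n = 3; log2 difference 1.30 and 1.48, edgeR adjusted p = 0.00605 and 0.00223), and rests on 1 count in FAK-WT replicate 1. Without FAK-WT replicate 2, *Tnc* no longer passed against FAK-/- cells (log2 difference 1.10, edgeR adjusted p = 0.0867). *Col1a2*, a collagen I chain, was the one gene of the list past the threshold for FAK-kd against FAK-/- (log2 difference 1.29, edgeR adjusted p = 0.00469). Without FAK-/- replicate 3 it also passed for FAK-WT against FAK-/- cells (log2 difference 1.17, edgeR adjusted p = 0.00056). The median log2 difference of the 16 genes was -0.09, -0.14 and 0.05 in the 3 comparisons.

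The other EMT transcription factors moved against *Snai2* where they passed. Of 13 such factors 12 had a row and 11 a mean of at least 1 CPM. For FAK-WT against FAK-/- cells 3 of 12 fell past the threshold and none rose, where 3.06% of all genes fell. Against FAK-kd 2 fell and none rose, where 2.89% fell, and none passed for FAK-kd against FAK-/- cells. The median log2 difference of the 11 was -0.65, -0.51 and -0.14. These comparisons share their FAK-WT libraries, and the list was put together with results of these data known.

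*Foxq1*, a forkhead factor, was at 5.04, 3.51 and 3.32 CPM in FAK-WT, 14.0, 15.1 and 24.0 CPM in FAK-/- and 14.7, 13.2 and 13.1 CPM in FAK-kd libraries. It was lower in FAK-WT cells by -2.35 and -1.98 on the log2 scale (edgeR adjusted p = 8.81e-07 and 5.29e-06), and by -2.07 against FAK-/- cells without their replicate 3. *Sox4*, an SRY-related factor, was at 32.7, 40.0 and 40.2 CPM in FAK-WT, 142, 135 and 196 CPM in FAK-/- and 108, 103 and 102 CPM in FAK-kd libraries, and was lower in FAK-WT cells by -1.998 and -1.40 (edgeR adjusted p = 2.77e-08 and 1.13e-06). The third gene that fell against FAK-/- cells was *Foxc2*, at 40.7 ± 4.08 CPM in FAK-WT and 83.1 ± 21.3 CPM in FAK-/- cells (SD, n = 3), which is outside the rule for named genes and was named after its values were seen. FAK-/- replicate 3 was at 108 CPM and the other FAK-/- libraries were at 69.8 and 72.0 CPM. Without FAK-/- replicate 3 the log2 difference of *Foxc2* went from -1.09 to -0.87, under the fold-change minimum, and 2 of the 12 factors fell. *Hmga2*, a chromatin protein upstream of the Snail and Twist genes, was the most abundant of the list at a mean of 1203 CPM and did not pass.

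The splicing side was covered by 8 other RNA-binding proteins with roles in EMT splicing, of which 7 had a mean of at least 1 CPM and none passed the threshold in any comparison. Among 7 genes with exons that ESRP proteins control, *Fgfr2* passed in all 3 comparisons. *Fgfr2* was at 0, 1.06 and 0.663 CPM in FAK-WT, 5.36, 5.40 and 6.02 CPM in FAK-/- and 2.55, 1.71 and 1.96 CPM in FAK-kd libraries. The 0 is from FAK-WT replicate 1, whose floor of 3.78 CPM lies above every FAK-kd value. For *Fgfr2* the log2 difference was -2.73 for FAK-WT against FAK-/-, -1.29 against FAK-kd and -1.43 for FAK-kd against FAK-/- cells (edgeR adjusted p = 8.98e-06, 0.00579 and 0.00161). Without FAK-WT replicate 3 the difference from FAK-kd no longer passed (edgeR adjusted p = 0.0939). Gene-level counts do not show which exons were used.

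*Vim* was compared with the other class III and IV intermediate filament genes, of which 7 of 9 had a row and 4 a mean of at least 1 CPM. *Nefl*, a neurofilament gene, had a mean of 372 CPM, and *Nes*, encoding nestin, 19.6 CPM. *Nefm*, the neurofilament medium gene, was lower in FAK-WT-expressing than in FAK-/- SCC cells (2.11 ± 1.44 against 4.67 ± 0.806 CPM, SD, n = 3; log2 difference -1.77, edgeR adjusted p = 0.000356) and had 3 counts in FAK-WT replicate 1. *Des*, the desmin gene, was higher in FAK-WT than in both other lines at a mean of 0.366 CPM, and is outside the rule for named genes. That mean rests on 2 counts in FAK-WT replicate 1 (2.52 CPM) and was 0.0973 CPM over the other 8 libraries, while *Des* also passed in both comparisons without that library.

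Markers of other cell types were measured beside these genes. Of 7 fibroblast markers 6 had a row. *Pdgfra* and *Pdgfrb*, which encode receptors for platelet-derived growth factor, were lower in FAK-WT cells, by -1.44 and -2.04 against FAK-/- (edgeR adjusted p = 1.35e-05 and 4.28e-07) and by -1.11 and -2.40 against FAK-kd cells (edgeR adjusted p = 0.000157 and 7.35e-08). *Pdgfra* came under the fold-change minimum against FAK-kd cells without FAK-kd replicate 3, at -0.98. The summed level of the fibroblast list was 687 to 809 CPM in FAK-WT, 553 to 669 CPM in FAK-/- and 654 to 861 CPM in FAK-kd libraries, with most of it from *Col6a3*, and *Thy1* had 3 counts in all. In the other direction, *Dcn* and *Dpt* of this list, at means of 0.241 and 0.851 CPM, passed as higher in FAK-WT-expressing cells against FAK-/- cells (log2 difference 2.24 and 1.36, edgeR adjusted p = 0.0426 and 0.0464), so that 2 of the 6 rose and 2 fell, beside 2.32% and 3.06% of all genes. Neither call held without FAK-WT replicate 2 or without replicate 3. When 1 library was left out, the *Dpt* call held only where that library was FAK-WT replicate 1. The *Dcn* call was also lost without FAK-/- replicate 2 or FAK-kd replicate 2 or 3. *Dpt* was lower in FAK-WT than in FAK-kd cells (log2 difference -2.63, edgeR adjusted p = 0.000111). The endothelial *Cdh5*, at a mean of 0.550 CPM, was higher in FAK-WT-expressing cells against both FAK-/- (log2 difference 3.42, edgeR adjusted p = 0.000272) and FAK-kd cells (6.04, edgeR adjusted p = 1.21e-05). In the same list *Pecam1*, at a mean of 0.161 CPM, went the other way (-0.94 and -0.74) without passing, and *Kdr* had 10 counts in all. *Dcn*, *Dpt*, *Cdh5*, *Pecam1* and *Kdr* are outside the rule for named genes. The summed levels of the immune, endothelial and melanocyte lists were at most 3.39, 2.05 and 0.210 CPM in any library, and their part in the results was not tested.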

How the data were processed

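RNA-seq libraries of 9 samples (3 cell lines, 3 replicates each) were grouped by sample title. The authors pseudoaligned paired-end reads with kallisto 0.43.1, summarized them to genes with tximport and removed genes with zero counts. The deposited values are expected counts as whole numbers, not scaled to library size. The transcriptome release is not given in the sources used here. Such estimates divide shared reads between genes, and the kit does not mark strand.

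All 19044 genes and 9 libraries entered 1 fit in edgeR 4.0.16 (R 4.3.3), with TMM normalization and a quasi-likelihood test, cell line as the only factor and no filter. Genes passed with an adjusted p (Benjamini-Hochberg) of at most 0.05 and at least a 2-fold difference either way, a log2 value of 1. Ratios within a library were tested with an exact permutation test (scipy 1.17.1, two-sided). Gene positions, lengths and GC content are from GENCODE for mm10, with 1 principal transcript per gene, and 18856 identifiers matched. Words of 31 bases shared with transcripts of other genes were counted. Promoters are from RefSeq, GRCm38.p6, and *Snai2*, *Zeb1*, *Esrp1*, *Esrp2* and *Ovol1* had none in the table used. The steps were tested on simulated counts.

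Depth was 779755 counts in FAK-WT replicate 1 and 25304994 to 37264636 in the others. Poisson intervals and floors cover counting error only. The intervals of fitted differences come from the quasi-likelihood fit and include the spread between libraries.

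The members and lists were chosen with earlier results of these data known. Named genes are the members, *Ptk2*, *Cdh1*, *Cdh2*, *Fn1*, *Grhl2*, *Krt5* and *Krt14*, up to 2 genes per list, comparison and direction with the largest change past the threshold and a mean of at least 1 CPM, and the 3 genes most correlated with each called member over 9 libraries (log2 CPM, prior count 2, genes kept by filterByExpr). *Epcam* and *Trp63*, also in that rule, have no row in the table and were not analysed here. Other genes given from the lists were picked with their values known. Alternatives were DESeq2 1.42.0 (Wald test), its size factors, library size alone, filterByExpr (12234 genes), at least 10 counts in every library (8083 genes), a replicate block, glmTreat, fits of the 2 groups alone, no minimum on the fold change, and leaving out each library. Leaving out libraries for the count ratios was added after the data were seen.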

Additional observations from a re-analysis of the deposited data

How the results depend on the processing

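The count of regulators past the threshold was 1, 0 and 0 for FAK-WT against FAK-/-, FAK-WT against FAK-kd and FAK-kd against FAK-/- cells, and it was the same without any 1 library (1 to 1, 0 to 0 and 0 to 0). With no fold-change minimum it was 3 and 2 in the comparisons with FAK-WT, and with glmTreat 0 for FAK-WT against FAK-/-. Over all genes the 1024, 1001 and 382 genes past the threshold became 3422, 3376 and 1494 with no fold-change minimum, 433, 450 and 117 with glmTreat, and 160, 131 and 50 with at least 10 counts in every library, which leaves 8083 genes to test. Without 1 library they ranged from 762 to 1025, 777 to 1152 and 264 to 396. Of 357 repeats of the regulators' differences, 352 kept their direction and their side of the threshold. Most of these differences lay well under the fold-change minimum, so that keeping their side says little about them. By adjusted p alone, *Twist2*, *Zeb1* and *Zeb2* against FAK-/- cells crossed 0.05 under several settings, as given above. *Snai2* lost its call with glmTreat (1.21), and *Twist1* in FAK-WT against FAK-/- cells, near 0 in the fit, turned to -0.0079 with at least 10 counts in every library and to -0.05, -0.09 and -0.08 without FAK-WT replicate 2, FAK-/- replicate 1 or FAK-/- replicate 2 (range without 1 library -0.095 to 0.24). The cause was not tested. Libraries with the same replicate number did not deviate together (mean r of -0.00699 over 9 pairs, 0.00317 over 18 pairs with other numbers, 1 library closest to its own number), so the numbers do not pair the samples. With a replicate block 1, 0 and 0 regulators and 941, 890 and 359 genes passed. Depth limits FAK-WT replicate 1, in which regulators other than *Vim* had 0 to 91 counts.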
